A study of Arabidopsis thaliana with 12 samples.

Results

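Class III peroxidases, the secreted haem peroxidases of plants, were examined in the root transcriptome of Arabidopsis thaliana after treatment with cellotriose (CT), a short chain of β-1,4-linked glucose from cellulose. The members are a list of 57 locus IDs of such genes and do not make up the whole family, since 16 further class III genes were counted apart from them. Of these, 55 were found among the 23106 genes of the deposited tables, and AT5G58390 and AT5G58400 were not among them. RNA was taken from roots of the T-DNA insertion line cork1-2 after a cross to an aequorin-containing wild type, so that every group descends from that cross and from 1 insertion line. The 4 groups of 3 libraries were seedlings homozygous for the insertion (HO) with CT, HO with water, segregated wild type (SWT) with CT and SWT with water. The CT dose was 10 µM, exposure lasted 1 h, and 16 seedlings made 1 library. CORK1, the gene that carries the insertion near its 3′ end, encodes a receptor kinase with leucine-rich repeats and a malectin domain.

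Class III peroxidases use hydrogen peroxide to oxidise phenolic compounds in the cell wall. In this way they couple monolignols into lignin and cross-link wall proteins, which stiffens the wall, and in another cycle they can release reactive oxygen species that loosen it or serve in defence. Arabidopsis carries many such genes, often in tandem, and roots express a large part of them. Particular members are known from the Casparian strip of the endodermis, from root hairs and from the oxidative burst that follows microbial or wall-derived elicitors.

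The tables hold no value per library. Group means of normalized read counts were therefore worked out from the deposited mean and log2 fold changes, and the error of a fold change is its deposited standard error (SE). The spread between libraries is given as the replicate coefficient of variation (CV) that this SE implies. This CV rests on the fitted dispersion of a gene, shared by all groups, and does not show which group varied. It had a median of 19.2% (9.53% to 89.7%) over the 52 members with a mean of at least 50 normalized counts. A gene was called at a Benjamini-Hochberg (BH) adjusted p below 0.05 when its log2 fold change was also 1.33 or more in size, the study's fold criterion. The label of the HO group fits the targeted gene, since CORK1 averaged 302 with CT and 255 with water in HO, and 1999 with CT and 1413 with water in SWT. Markers of root hairs (4 genes), endodermis (8) and stele (3) were all in the tables, at means of 11.3 or more. The 6 green shoot markers, whose means lay between 2.32 and 1711, summed to 3398 with CT and 3471 with water in HO, against 2121 with CT and 3086 with water in SWT. RBCS1A made up the larger part of these sums. With CT in SWT, 1 of the 6 markers had a positive estimate, and their median log2 fold change was −0.68. That marker was CA1, with a mean of 12.5 normalized counts (1.76; Wald test, BH adjusted p 0.0347). LHCB2.1 was lower (−0.86; Wald test, BH adjusted p 0.0407). RBCS1A (−0.50), LHCB1.2 (−0.82) and LHCA1 (−0.55) had negative estimates that did not pass. RBCS2B (−2.41) had no adjusted p. The part of the shoot markers in the results below was not tested. In such bulk samples, fewer cells of a type and less RNA per cell cannot be told apart.

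The windows from 250 bases before to 50 bases after the annotated start of 6 members are shown because these genes carry the comparisons below. PRX33, AT5G39580 and AT1G14550 had the largest rises with CT in SWT. PRX34 is the closest relative of PRX33, PER4 is the neighbour of AT1G14550, and PRX71 was the most abundant member called higher with CT in SWT. Sequences are from the TAIR10.1 genome of RefSeq and read 5′ to 3′ on the strand of the gene, with capitals for TTGACC or TTGACT on either strand, the full forms of the W-box to which WRKY transcription factors are known to bind.
PRX33 (AT3G49110), chr3:18200337-18200636, plus strand: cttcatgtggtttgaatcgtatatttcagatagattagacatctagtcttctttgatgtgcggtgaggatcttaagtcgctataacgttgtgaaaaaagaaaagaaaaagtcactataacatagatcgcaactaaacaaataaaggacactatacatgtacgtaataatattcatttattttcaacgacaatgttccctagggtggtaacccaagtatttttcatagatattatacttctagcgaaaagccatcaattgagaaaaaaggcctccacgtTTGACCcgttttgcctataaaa
PRX34 (AT3G49120), chr3:18207401-18207700, plus strand: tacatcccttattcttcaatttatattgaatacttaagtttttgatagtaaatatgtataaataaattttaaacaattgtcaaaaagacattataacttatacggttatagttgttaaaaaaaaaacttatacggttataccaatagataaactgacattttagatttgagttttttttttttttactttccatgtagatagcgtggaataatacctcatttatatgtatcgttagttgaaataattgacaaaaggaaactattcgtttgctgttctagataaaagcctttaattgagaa
AT5G39580, chr5:15849092-15849391, minus strand: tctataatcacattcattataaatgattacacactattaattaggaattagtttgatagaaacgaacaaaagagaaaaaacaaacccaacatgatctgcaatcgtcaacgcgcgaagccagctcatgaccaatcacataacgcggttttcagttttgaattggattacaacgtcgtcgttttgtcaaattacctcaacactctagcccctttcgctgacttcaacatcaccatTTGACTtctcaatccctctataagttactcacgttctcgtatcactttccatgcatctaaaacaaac
AT1G14550, chr1:4978672-4978971, plus strand: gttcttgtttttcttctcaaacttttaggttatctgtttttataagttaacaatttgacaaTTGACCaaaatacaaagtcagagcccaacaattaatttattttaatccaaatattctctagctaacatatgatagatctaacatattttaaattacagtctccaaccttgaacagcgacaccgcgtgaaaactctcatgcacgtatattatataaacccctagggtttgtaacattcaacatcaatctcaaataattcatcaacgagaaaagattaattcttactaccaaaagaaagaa
PER4 (AT1G14540), chr1:4975656-4975955, minus strand: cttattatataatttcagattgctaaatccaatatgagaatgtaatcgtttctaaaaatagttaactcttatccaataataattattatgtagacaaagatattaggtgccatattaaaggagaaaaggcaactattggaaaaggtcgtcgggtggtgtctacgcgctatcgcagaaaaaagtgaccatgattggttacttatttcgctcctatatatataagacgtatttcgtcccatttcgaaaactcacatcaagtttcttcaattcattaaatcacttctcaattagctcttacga
PRX71 (AT5G64120), chr5:25660958-25661257, minus strand: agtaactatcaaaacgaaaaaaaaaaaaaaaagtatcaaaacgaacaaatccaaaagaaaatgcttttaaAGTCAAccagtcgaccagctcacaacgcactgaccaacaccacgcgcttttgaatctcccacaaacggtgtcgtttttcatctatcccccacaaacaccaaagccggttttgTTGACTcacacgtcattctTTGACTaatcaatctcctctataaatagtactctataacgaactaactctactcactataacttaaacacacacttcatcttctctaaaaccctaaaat
In PRX33 the match lies 28 bases after the annotated start, in AT5G39580 it lies 17 bases and in AT1G14550 189 bases before it. PRX71 has 3 matches, at 180, 68 and 49 bases before the start, the farthest on the other strand. The windows of PRX34 and PER4 hold none.

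The members differed widely in level. Compared per kilobase of exon, the mean normalized count of the 55 members had a median of 1208 and a range of 1.12 to 27935. AT5G64100 (27935 per kb) and AT3G32980 (26544 per kb) stood highest, followed by PRXR1 (17499.9 per kb; AT4G21960), PRX34 (12065 per kb; AT3G49120) and AT2G37130 (11302 per kb). AT3G32980 ranked above AT5G64100 in 3 of the 4 groups and below it in SWT with CT, so that the order of this pair was not fixed. PRX34, a cell wall peroxidase of roots known for a role in cell elongation and in the oxidative burst, and AT2G37130 exchanged places when the longest transcript was used as the length, with 12693 per kb for AT2G37130. At the other end, AT2G18140 had a mean of 1.14 normalized counts and at most 1.84 in any group, too few for a fold change. The next lowest means were those of AT5G19880 (47.5), AT1G05240 (49.0), PRX33 (60.6; AT3G49110) and AT5G40150 (88.9). For AT1G05240, 57.1% of the 75-base windows of its exons occur elsewhere in the genome, which makes its count uncertain.

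CT versus water in SWT asked which members respond where CORK1 is intact. In the deposited table, 12 of the 54 members with an adjusted p were called higher (22.2%), against 2.58% of all genes (Wald test, BH). The members were listed with earlier results of these data known. Their median mean count was 1564, against 283 for all genes, and the shares were not matched for level. With the 10 tested genes of the family outside the list, none of which was called, the share was 12 of 64 (18.8%). Of the members, 0 were called lower at 1 h, against 0.248% of all genes. At an unadjusted p below 0.05, 20 of the 55 members were higher and 2 lower, where all 23103 genes had 4808 in both directions. The 12 called members were PRX33, AT5G39580, AT1G14550, AT3G03670, PER4, AT5G19880, PRX37, AT4G08780, AT4G36430, AT5G64110, PRX71 and AT5G06730, with log2 fold changes between 1.51 and 5.07.

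PRX33, like PRX34 a wall peroxidase of the oxidative burst, had the largest rise. It averaged 12.1 normalized counts with CT and 8.27 with water in HO, and 216 with CT and 6.43 with water in SWT. The SWT group with CT alone stood high, and the other 3 groups lay within a few counts of each other. In SWT its log2 fold change reached 5.07 (n = 3 libraries each, SE 0.57; Wald test, BH adjusted p 6.38e-17). AT5G39580, the closest relative of PRX71 in coding sequence (75.5% identity), averaged 207 with CT and 197 with water in HO, and 5429 with CT and 421 with water in SWT. Its rise in SWT was 3.69 (SE 0.44; Wald test, BH adjusted p 7.48e-15). AT1G14550 averaged 279 with CT and 246 with water in HO, and 1619 with CT and 268 with water in SWT. Of all members it had the smallest p in SWT, where it rose by 2.59 on the log2 scale (SE 0.21; Wald test, BH adjusted p 1.05e-30). Its implied CV of 18.1% was the lowest of the 12 called members, and near the median of 19.2% over members with a mean of at least 50.

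PER4 averaged 1099 with CT and 751 with water in HO, and 4577 with CT and 846 with water in SWT, a rise in SWT of 2.44 (SE 0.24; Wald test, BH adjusted p 1.93e-22). PRX37, a putative apoplastic peroxidase of vascular bundles whose overexpression is known to dwarf the plant and to raise wall-bound phenolics, averaged 2526 with CT and 2370.0 with water in HO, and 11648 with CT and 2591 with water in SWT. Its rise in SWT was 2.17 (SE 0.24; Wald test, BH adjusted p 3.15e-17). PRX71, a wall-bound peroxidase linked to lignification, was the most abundant of the called members. It averaged 8130.5 with CT and 6495 with water in HO, and 22167 with CT and 7606 with water in SWT. The SWT rise was 1.54 (SE 0.29; Wald test, BH adjusted p 2.72e-06). Per kilobase it ranked 3rd among the members in SWT with CT, at 16518.

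The other called members had fewer counts or a wider spread. AT3G03670 averaged 114 with CT and 77.0 with water in HO, and 737 with CT and 132 with water in SWT (log2 fold change 2.49, SE 0.54). AT5G19880 averaged 30.2 with CT and 10.2 with water in HO, and 124 with CT and 25.4 with water in SWT (2.29, SE 0.69), with a CV of 58.5%, the highest of the 12. AT4G08780 averaged 299.7 with CT and 316 with water in HO, and 1673 with CT and 407 with water in SWT (2.04, SE 0.34). In each of these genes the SWT group with CT was again the highest of the 4. AT4G36430 averaged 1024 with CT and 857 with water in HO, and 4812 with CT and 1528 with water in SWT (1.65, SE 0.42). AT5G64110 averaged 1182 with CT and 984 with water in HO, and 2601 with CT and 850.3 with water in SWT (1.61, SE 0.28). AT5G06730 averaged 239 with CT and 212 with water in HO, and 1073 with CT and 377 with water in SWT (1.51, SE 0.36). When the rise was tested against the fold criterion itself, 5 of the 12 were still called, namely PRX33, AT5G39580, AT1G14550, PER4 and PRX37 (one-sided z test, BH). Dividing the statistics by their robust spread left 8, without AT3G03670 (z test, BH adjusted p 0.137), AT5G19880 (0.581), AT4G36430 (0.314) and AT5G06730 (0.246). The exons of AT4G08780 overlap AT4G08790 on the other strand, and since the sources used here do not say whether counting was by strand, its level is uncertain, as it is for all members named below as overlapping a gene.

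**Figure D1:**
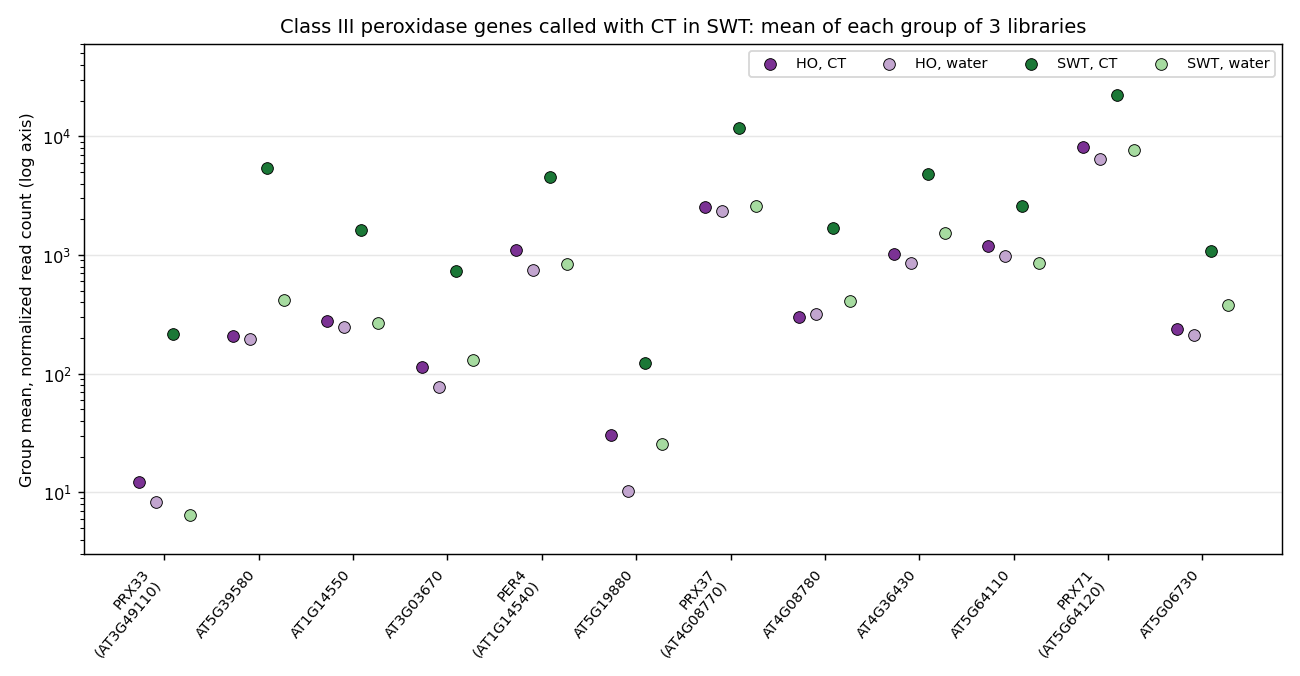
Mean normalized read count (log axis) of each group of 3 libraries for the 12 class III peroxidase genes called with CT in SWT, ordered by the size of their rise; points give HO with CT, HO with water, SWT with CT and SWT with water. In each gene the SWT mean with CT is the highest of the 4, from 124 in AT5G19880 to 22167 in PRX71.

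A further 5 members passed the adjusted p without reaching the fold criterion, so that by adjusted p alone 16 members were higher (29.6%, against 8.3% of all genes) and 1 was lower (1.85%, against 3.23% of all genes). AT5G64100, the member of highest level, averaged 39814 with CT and 36649.8 with water in HO, and 52857 with CT and 31359 with water in SWT, or 0.75 on the log2 scale in SWT (SE 0.26; Wald test, BH adjusted p 0.0389). PRX72, known for lignin biosynthesis, rose by 0.74 (SE 0.23) in SWT, AT4G37530 by 0.73 (SE 0.11) and AT4G33420 by 0.53 (SE 0.18). AT4G33420 overlaps AT4G33430 on the other strand. AT5G15180 was the member that was lower, with 734 with CT and 802 with water in HO, and 411 with CT and 688 with water in SWT (log2 fold change −0.74, SE 0.23; Wald test, BH adjusted p 0.0141).

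The remaining 37 tested members did not pass the adjusted p, with log2 fold changes between −0.66 and 1.33 and a median of 0.05, where all genes with a mean of at least 50 had a median of −0.02. Of them 19 had a positive estimate. The 95% interval lay within the fold criterion on both sides for 37 of the 43 members that were not called. PRX52 had the highest estimate among these, 1.33, with an SE of 1.05 and a CV of 89.7%, so that its change was not detectable with this spread.

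**Figure D2:**
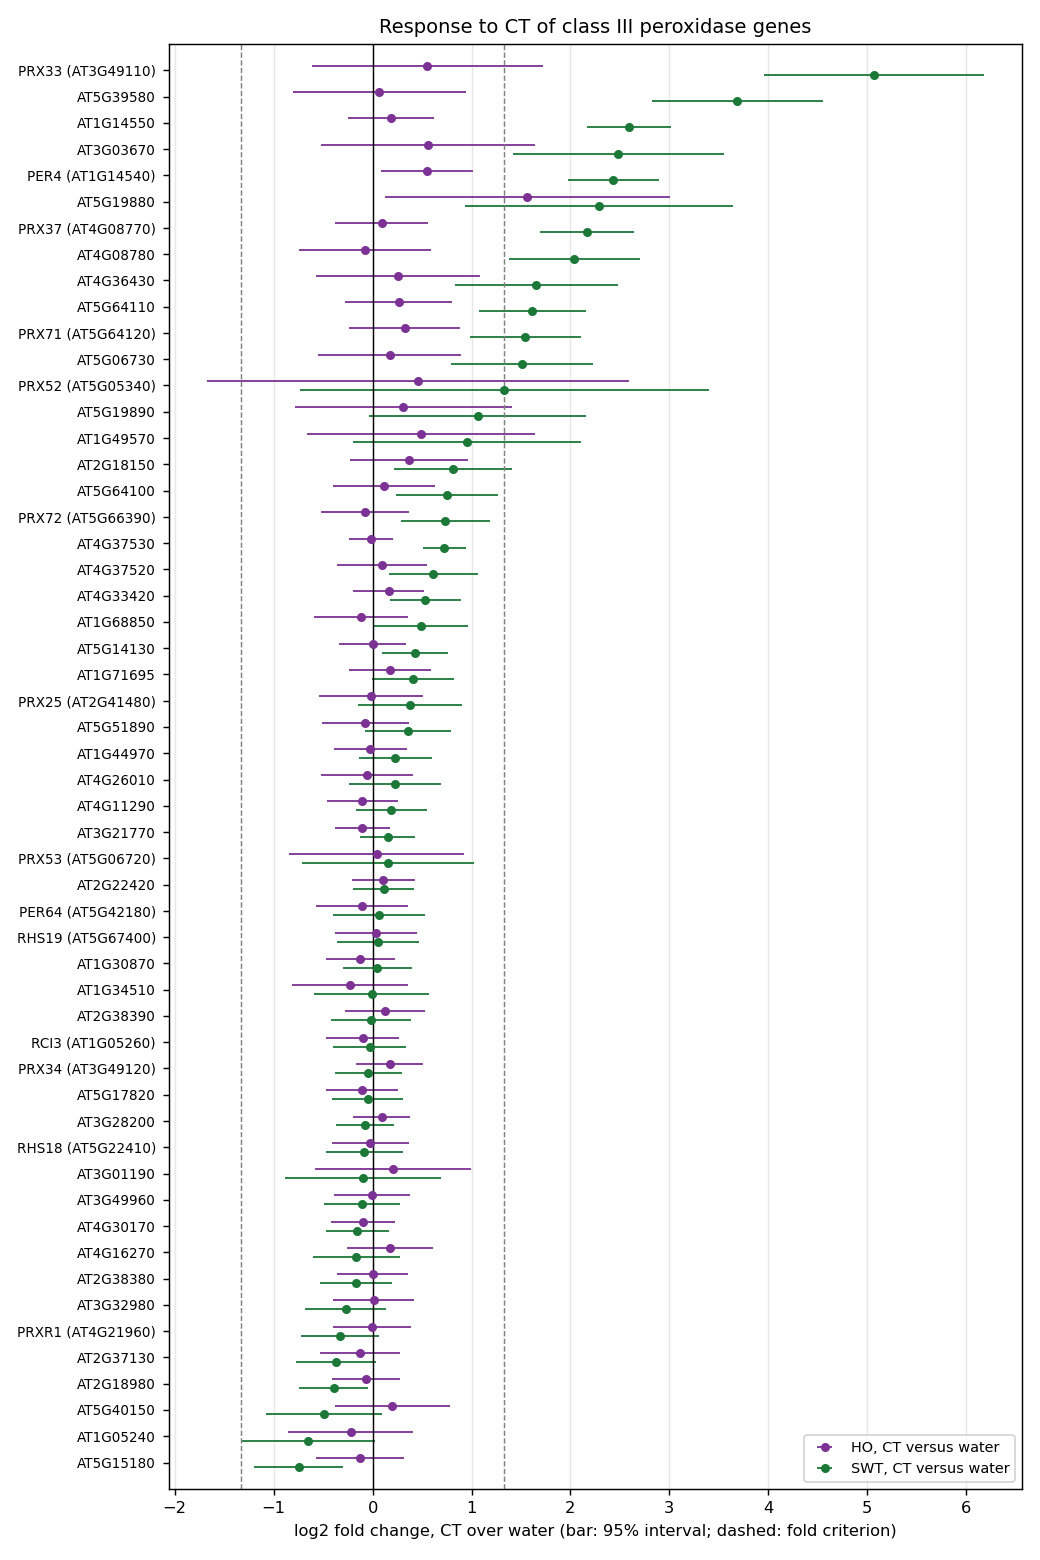
Log2 fold change of CT over water in HO and in SWT for the 54 class III peroxidase genes with a mean of at least 10 normalized counts, with 95% intervals; dashed lines mark the fold criterion of 1.33. In SWT the estimates run from −0.74 in AT5G15180 to 5.07 in PRX33, and those in HO lie between −0.23 and 1.57.

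Members were then grouped by what is known of them, in lists drawn up with earlier results of these data known, so that their counts are a description. Of the 8 members linked to defence or the apoplastic oxidative burst, 5 were called higher with CT in SWT (PRX33, AT5G39580, AT1G14550, PER4 and PRX71), against 2.58% of all genes, and the median log2 fold change was 1.99. The other members of this group were PRX34 (−0.04, SE 0.17), AT2G37130 (−0.37, SE 0.21) and PRX52 (1.33, SE 1.05), none of which passed. Of the 5 members that polymerise lignin of the Casparian strip, 1 passed the adjusted p (PRX72) and 0 were called. Their median was 0.19, with PER64 at 0.06 (SE 0.24), RCI3 at −0.03 (SE 0.19), AT1G44970 at 0.23 (SE 0.19) and AT4G11290 at 0.19 (SE 0.18). PER64 overlaps AT5G42190 on the other strand. Root hair members did not pass either. RHS18 was at −0.08 (SE 0.20), RHS19 at 0.05 (SE 0.21), AT4G26010 at 0.23 (SE 0.24) and AT1G05240 at −0.66 (SE 0.34), with a median of −0.02, and RHS19 and AT4G26010 overlap AT5G67410 and AT4G26020 on the other strand. The members repressed by the transcription factor UPBEAT1 (UPB1), which is known to set the border between dividing and elongating cells in the root tip, were AT4G11290 as above, AT4G16270 at −0.17 (SE 0.22) and AT5G17820 at −0.05 (SE 0.18). UPB1 itself was at 0.42 (SE 0.22; Wald test, BH adjusted p 0.256). AT4G16270 overlaps AT4G16267 on the other strand. Of the 5 members linked to lignin of vessels and fibres, PRX72 passed the adjusted p, 0 were called, and the median was 0.38. PER4 and PRX71 are also linked to lignin, and with them counted here as well, 2 of 7 were called. PRX72 is also a Casparian member and PRX52 also a defence member, so these groups are not independent. In these 5 groups, by the same Wald test, 0 members passed in HO or in water. There an unadjusted p below 0.05 gave 2 and 8 of all 55 members, and 428 and 1088 of all 23103 genes.

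The same treatment in HO shows which responses remained where CORK1 is disrupted. By the criteria, 0 of the 55 members were called, against 0.00866% of all genes (Wald test in the deposited table, BH). At an unadjusted p below 0.05 there were 2 of the 55 members, PER4 and AT5G19880, both higher, against 428 of all 23103 genes. PER4 had a log2 fold change of 0.55 in HO (95% interval 0.08 to 1.02) and AT5G19880 one of 1.57 (SE 0.73), in each case with a BH adjusted p of 1.00. Among the 12 members that rose in SWT, the HO estimates ran from −0.08 in AT4G08780 to 1.57 in AT5G19880, with a median of 0.26, and 11 were positive. The other members had a median of −0.01 in HO. The 95% interval in HO lay within the fold criterion for 48 of the 55 members. It ran from −0.61 to 1.72 in PRX33, from −0.81 to 0.95 in AT5G39580, from −0.25 to 0.62 in AT1G14550, from −0.38 to 0.56 in PRX37 and from −0.24 to 0.89 in PRX71.

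A call in SWT and none in HO is not in itself a difference, so the HO response minus the SWT response was tested for every gene. It was more negative in HO at a BH adjusted p below 0.05 (z test) for 8 of the 55 members (14.5%), against 3.31% of all genes, and more positive for 0, against 0.645% of all genes. An unadjusted p below 0.05 gave 13 members, all more negative in HO, and 2759 of all 23103 genes in both directions. AT1G14550 had the smallest p, with a log2 fold change of 0.19 in HO and 2.59 in SWT, a difference of −2.41 (SE 0.31; z test, BH adjusted p 3.00e-12). PRX37 followed with 0.09 in HO and 2.17 in SWT, a difference of −2.08 (SE 0.34; z test, BH adjusted p 2.16e-07). The difference was −3.62 for AT5G39580 (SE 0.63), −1.89 for PER4 (SE 0.34), −4.51 for PRX33 (SE 0.82) and −2.12 for AT4G08780 (SE 0.48). AT4G37530 and AT5G64110 were the remaining members, with −0.74 (SE 0.16) and −1.35 (SE 0.39). The rise of AT4G37530 in SWT was under the fold criterion, and its CV of 9.53% was the lowest of all members. With the statistics divided by their robust spread, the difference of AT5G64110 no longer passed (z test, BH adjusted p 0.151). For PRX71 the difference was −1.22 (SE 0.41; z test, BH adjusted p 0.0630), and it was not past the threshold for AT3G03670 (−1.92, SE 0.77), AT4G36430 (−1.40, SE 0.60) and AT5G06730 (−1.34, SE 0.52). AT5G19880, with −0.72 (SE 1.01, 95% interval −2.70 to 1.25), had an interval that spans both directions. All 12 estimates were more negative in HO, which the choice of these genes by their SWT estimate favours. Tested against the fold criterion itself, 1 of the 8 was called, PRX33.

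HO versus SWT in water gives the background difference between the genotypes. By the criteria 0 of the 55 members were called, against 0.13% of all genes (Wald test, BH). At an unadjusted p below 0.05 there were 8, with AT4G11290 higher in HO and 7 lower, against 1088 of all 23103 genes. Of the 12 members that rose with CT in SWT, 10 had a lower estimate in HO in water, against 14 of the other 43. The median log2 differences were −0.30 and 0.09, and a shift of the group was not tested. The 95% interval lay within the fold criterion for 45 members. The largest difference was that of PRX52, with 15.2 normalized counts in HO and 124 in SWT, a log2 of −3.03 (SE 1.08; Wald test, BH adjusted p 0.536). AT5G39580 had −1.10 (SE 0.44), PRX53 −1.08 (SE 0.45), AT4G36430 −0.83 (SE 0.42) and AT5G06730 −0.83 (SE 0.37), none past the adjusted threshold.

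With CT, 12 members were called lower in HO than in SWT (21.8% of 55, against 2.99% of all genes) and 0 were called higher, against 0.238% of all genes (z test on the derived difference, BH). At an unadjusted p below 0.05 there were 22 lower and 6 higher, where all 23103 genes had 5299 in both directions. The CT libraries of SWT enter both this comparison and the SWT response. The called members were those called with CT in SWT other than AT5G64110, together with PRX52. The largest differences were −4.71 in AT5G39580 (SE 0.44), −4.15 in PRX33 (SE 0.52) and −3.90 in PRX52 (SE 1.07). PRX52, known for lignin of interfascicular fibres, averaged 20.9 in HO and 312 in SWT with CT, and with its CV of 89.7% the call was lost when the statistics were divided by their spread (z test, BH adjusted p 0.407). That alternative left 7 members, since AT3G03670 (z test, BH adjusted p 0.0837), AT4G36430 (0.0514), AT5G19880 (0.689) and PRX71 (0.0760) were not called either, and a test against the fold criterion itself left 5. By adjusted p alone (z test, BH), 19 members were lower in HO with CT, against 9.0% of all genes, and 2 were higher, against 4.28% of all genes. The higher ones were AT5G15180 (0.84, SE 0.23) and AT2G37130 (0.62, SE 0.21), both with negative estimates with CT in SWT.

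Members often lie side by side, and 8 of the 12 that rose in SWT had another member as the next gene, against 9 of the other 43. PRX37 and AT4G08780 lie 3706 bp apart on opposite strands of chromosome 4 (chr4:5598037-5600398 and chr4:5604105-5608290), share 93.8% of their coding bases and rose in SWT by 2.17 (SE 0.24) and 2.04 (SE 0.34). PER4 and AT1G14550 on chromosome 1 (72.3% identity) rose by 2.44 (SE 0.24) and 2.59 (SE 0.21). On chromosome 5, AT5G64100, AT5G64110 and PRX71 form a row of 3 on 1 strand, with 0.75 (SE 0.26), 1.61 (SE 0.28) and 1.54 (SE 0.29). AT4G37520 and AT4G37530 (92.4% identity) had 0.61 (SE 0.23) and 0.73 (SE 0.11), and AT2G38380 and AT2G38390 (90.6% identity) had −0.17 (SE 0.18) and −0.01 (SE 0.21). These neighbours had estimates closer than their errors, except that AT5G64100 lay below AT5G64110 by 0.86. In each of PRX37 and AT4G08780, 27 of the 75-base exon windows occur elsewhere in the genome (2.45% and 3.07% of their windows), and how reads that match both were counted was not tested.

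The estimates of other relatives lay farther apart, and the differences within these pairs were not tested. PRX33 and PRX34 lie 4385 bp apart on the plus strand of chromosome 3 (chr3:18200587-18203265 and chr3:18207651-18210333) and share 90.4% of their coding bases. PRX34 averaged 18393 with CT and 16318.5 with water in HO, and 19081 with CT and 19659 with water in SWT. In SWT it had a log2 fold change of −0.04 (95% interval −0.38 to 0.30), where PRX33 had 5.07. In each of PRX33 and PRX34, 49 of the 75-base exon windows occur elsewhere in the genome (3.86% of those of PRX33), and how reads that match more than 1 gene were counted was not tested. PRX53, a wound-responsive peroxidase, and AT5G06730 share 80.8% and lie 919 bp apart, with 0.15 (SE 0.44) and 1.51 (SE 0.36). AT5G19880 and AT5G19890 (56.0% identity) had 2.29 (SE 0.69) and 1.06 (SE 0.56), both positive and with wide errors. AT2G18150, whose neighbour AT2G18140 had too few counts for a comparison, had 0.81 (SE 0.30; Wald test, BH adjusted p 0.0619).

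**Figure D3:**
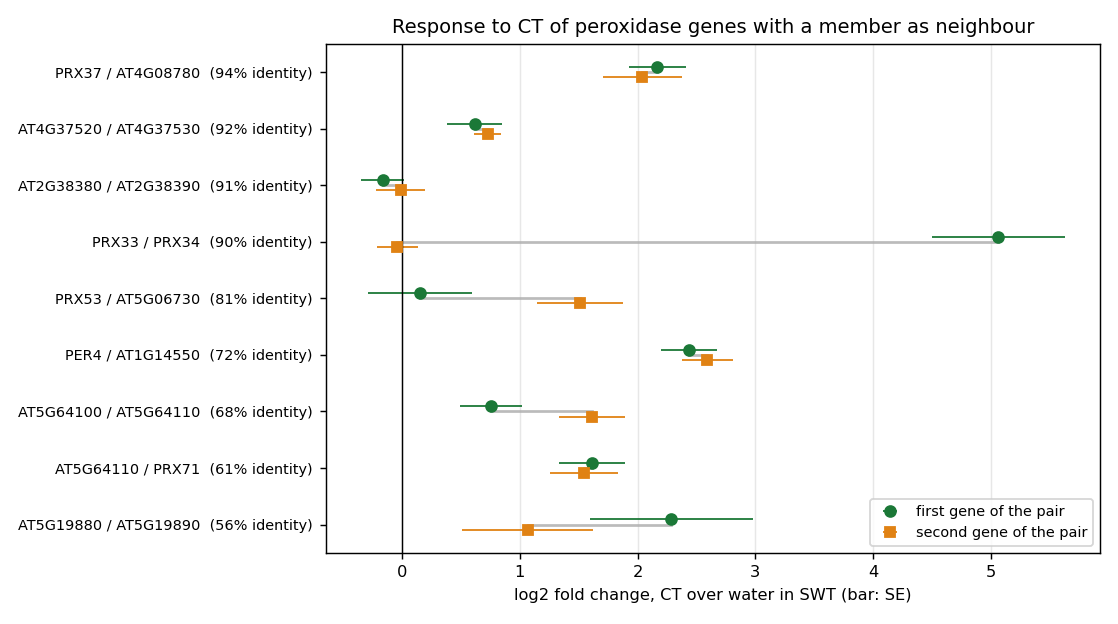
Log2 fold change of CT over water in SWT, with its SE, for 9 pairs of class III peroxidase genes that lie next to or near each other, ordered by the identity of their coding sequences. Both genes of the pairs PRX37 and AT4G08780 (93.8%) and PER4 and AT1G14550 (72.3%) rose by at least 2.04 on the log2 scale, while PRX33 (5.07) and PRX34 (−0.04) are far apart.

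The 12 members called with CT in SWT were not the most abundant in water. In SWT with water the 12 summed to 15058 normalized counts, against 260247 for the other 43 members. With CT they summed to 15143 in HO, against 12523 with water (a ratio of 1.21), and to 56675 in SWT, against 15058 with water (3.76). The sum over all 55 members was 305074 with CT and 300947 with water in HO (1.01), and 330057 with CT and 275305 with water in SWT (1.2). All members together made up 1.5% of the summed normalized counts with CT and 1.46% with water in HO, and 1.53% with CT and 1.37% with water in SWT. PRX71 took 2.67% of the counts of the members with CT and 2.16% with water in HO, and 6.72% with CT and 2.76% with water in SWT. AT3G32980 took 14.9% with CT and 15.0% with water in HO, and 10.0% with CT and 14.5% with water in SWT. AT5G64100 passed the adjusted p in SWT without being called. Its share was 13.1% with CT and 12.2% with water in HO, and 16.0% with CT and 11.4% with water in SWT. No error is given for these sums, which join genes of the same libraries.

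**Figure D4:**
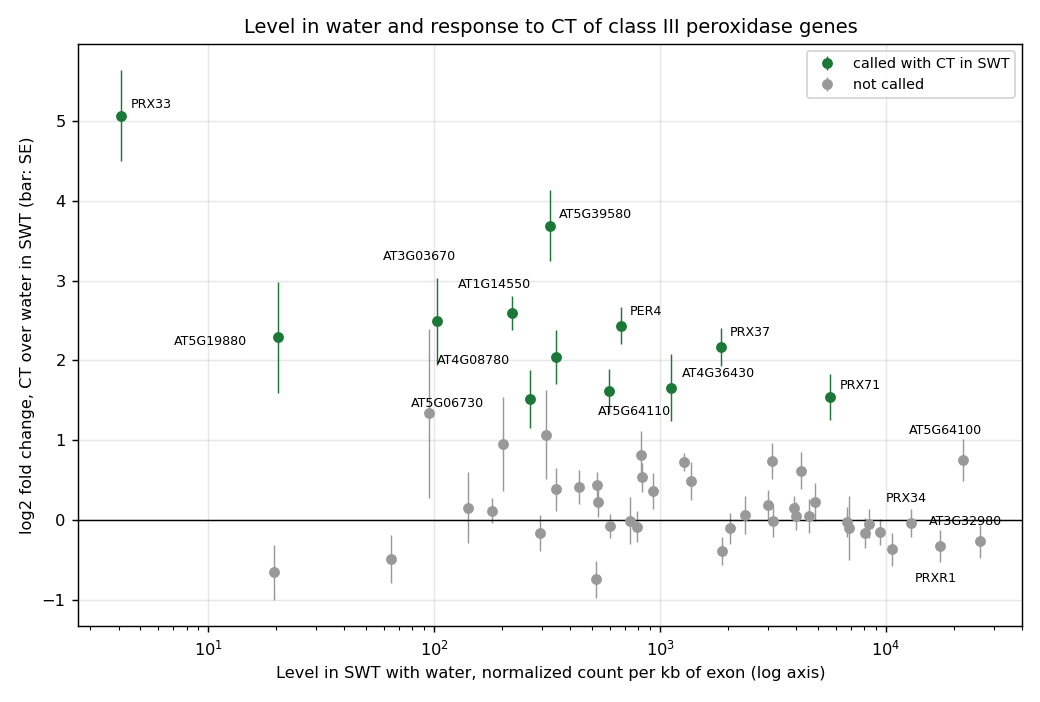
Level of each class III peroxidase gene in SWT with water (normalized count per kb of exon, log axis) against its log2 fold change with CT in SWT (bars give the SE), for the members called with CT and for those not called. The called members lie between 4.11 per kb (PRX33) and 5667 per kb (PRX71), and the members of highest level, AT3G32980, AT5G64100 and PRXR1, are among those not called.

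In gene structure, 41 of the 55 members had 4 exon blocks, and coding length varied little, with a median of 990.0 bp (933 to 1119). Of the called members, 9 had 4 exon blocks and 3 had 3. They lie on chromosomes 1, 3, 4 and 5, with 5 of the 18 members of chromosome 5 and 0 of the 8 of chromosome 2. Median pairwise identity of coding sequence over all members was 51.9%. TTGACC or TTGACT on either strand occurred in the 300-base window of 7 of the 12 called members (58.3%), of 11 of the other 43 (25.6%) and of 8883 of all 27443 protein-coding genes (32.4%). Over all genes called higher with CT in SWT the share was 58.8% (325 of 553). With the core TTGAC alone, which is part of both, the shares were 75%, 44.2%, 50.5% and 75.8%. PRX37 and AT4G08780, both of which rose, hold no full match, and PRX72 holds 3. A match of these letters is a description and not a binding site.

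Genes that act beside the peroxidases in the wall were described by their lists. Of the NADPH oxidases (RBOH) that make apoplastic superoxide, 8 of 10 were in the tables, and 4 passed the adjusted p with CT in SWT, all higher, with a median log2 fold change of 0.49. RBOHA had the smallest p, with 1.71 (SE 0.22; Wald test, BH adjusted p 1.06e-12). Of the 19 enzymes that lead from phenylalanine to monolignols, which class III peroxidases couple into lignin, 13 passed, all higher, with a median of 0.72. The 4-coumarate:CoA ligase gene 4CL1 had the smallest p, with 2.08 (SE 0.19; Wald test, BH adjusted p 7.53e-26). Of the 11 laccases, which oxidise monolignols with oxygen, 2 were higher and 1 was lower, with a median of 0.27, and LAC12 had the smallest p, with 3.88 (SE 0.41; Wald test, BH adjusted p 1.01e-18). The median over all genes in the same comparison was −0.01, and 1806 of 21759 tested genes were higher and 702 lower. With the fold criterion as well, 1 NADPH oxidase, 6 monolignol enzymes and 1 laccase were called higher, against 2.58% of all genes. The difference between responses was more negative in HO for 2, 12 and 2 genes of these lists, against 3.31% of all genes (z test, BH). It was more positive for 1 laccase, LAC7 (0.90), against 0.645% of all genes. In HO 0 genes of these 3 lists passed the adjusted p, where 2 of all 23103 tested genes did (Wald test, BH).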

How the data were processed

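The authors aligned paired poly-A reads of 12 root libraries to TAIR10 with STAR 2.7.10a, counted reads per gene with featureCounts 2.0.1 and fitted them with DESeq2 1.34.0. The deposited tables cover the CT response of HO, that of SWT, and HO against SWT in water. Each holds a deposited mean normalized read count over all libraries (the signal used here), a deposited log2 fold change with its log2 SE, the Wald statistic as a deposited score, and deposited p-values and adjusted p-values (BH). No column per library was used, so depth is unknown, and p-values measure the spread between libraries that the labels do not describe as separate cultures. How low counts were filtered is not stated in the sources, and the smallest mean was 0.800.

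The Wald tests were used as deposited, since a count model would need values per library. Group means and dispersions were recovered from the mean, the fold changes and the SEs. Of 8 combinations of table signs over 2922 genes, the deposited one gave the smallest disagreement between dispersions (3.96e-05, next 0.000342). The difference between responses was tested by z, with BH over 23103 genes. HO against SWT with CT was derived by adding the water difference to it, and its variance by subtracting that of the water difference from the summed variances of both responses. Scripts were tested on simulated data. Positions, lengths, overlaps, 75-base windows, coding identity (Biopython 1.88) and promoters came from TAIR10.1 (RefSeq), matched by locus ID. It named 14 members. Python 3.11.15, pandas 2.3.3 and scipy 1.17.1 were used.

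Members and lists were chosen with earlier results of these data known. Named were members called in any comparison, with a called difference between responses or with an adjusted p below 0.05 under the fold criterion in SWT, the 5 of highest level per kb and of lowest mean, the functional groups and neighbours of called members. Further lists are given by counts, median and the gene of smallest p. AT2G38380, AT2G38390, AT4G37520 and AT2G18150 were added as neighbours, and PRX53 in water and AT5G15180 and AT2G37130 with CT after their values were seen. Alternatives for calls were another p adjustment, no fold criterion, an adjusted p below 0.01, a test against the fold criterion, a minimum mean of 50, statistics divided by their robust spread, and centring on the median gene. For levels and promoters they were transcript length and the core motif.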

Additional observations from a re-analysis of the deposited data

Results flagged for a closer look

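The CT response differed between HO and SWT by a test of the difference itself in 8 members (z test, BH over all genes, adjusted p from 3.00e-12 in AT1G14550 to 0.0194 in AT5G64110). The HO response minus the SWT response was −2.41 in AT1G14550, −2.08 in PRX37 (AT4G08770), −3.62 in AT5G39580, −1.89 in PER4 (AT1G14540), −4.51 in PRX33 (AT3G49110), −0.74 in AT4G37530, −2.12 in AT4G08780 and −1.35 in AT5G64110, each on the log2 scale. In all 8 the estimate was lower in HO. They are 14.5% of the 55 members, where the difference was more negative in HO for 3.31% of all genes and more positive for 0.645%. With the statistics divided by their robust spread AT5G64110 no longer passed (z test, BH adjusted p 0.151). Tested against the fold criterion itself, only 1 member was called, PRX33. With 3 libraries per group and no value per library, the spread of single libraries could not be examined for outliers.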

How the results depend on the processing

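The counts of members called and the calls of named members were recomputed under each alternative of the test, and gene length and the motif bear on levels and promoters only. After seeing the data, the counts of the lists with CT in SWT were recomputed too. The 5 called defence members were 4 against the fold criterion itself and 5 otherwise, and the other groups had 0, apart from PRX72 without the fold criterion. Against the fold criterion, 0 NADPH oxidases in place of 4, 1 monolignol enzyme in place of 13 and 1 laccase in place of 3 passed. With statistics divided by their robust spread these counts were 2, 10 and 2. Among members, 0 were called in HO and 0 in water under each alternative run (Wald or z tests, BH). There unadjusted p below 0.05 gave 2 and 8 of the 55 members, and 428 and 1088 of all 23103 genes. With CT in SWT, a test against the log2 criterion of 1.33 itself gave 5 members in place of 12, and the other alternatives gave 8 to 17. For the difference between responses that test gave 1 in place of 8 and the others gave 7 or 8, with 7 when the fold criterion was added, an alternative chosen after seeing the data. For HO versus SWT with CT, the count of 12 moved to 21 without the fold criterion, to 5 against the fold criterion itself and to 7 with statistics divided by their robust spread. The alternatives kept the same fold changes apart from centring, so that the sign of a called value could not change. Over all genes, the same alternatives gave 139 to 2508 calls with CT in SWT, where the main count was 615, 33 to 926 for the difference (913), and 181 to 3068 for HO versus SWT with CT (745). Centring shifted fold changes by at most 0.02 on the log2 scale. Members with few counts (AT2G18140, AT5G19880) or a wide spread (PRX52) had the widest intervals. No paired analysis was possible because the tables hold no values per library, and leaving out replicates or running TMM or another tool was not run for the same reason.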

Other observations

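Class III peroxidase genes outside the list of members were counted beside the members. Of 16 such genes, 12 were in the tables and 10 had an adjusted p for CT versus water in SWT. Of these 10, 0 passed in either direction (Wald test, BH), and their median log2 fold change was −0.20. By adjusted p alone, 8.3% of all tested genes were higher and 3.23% lower, so that a count of 0 among so few genes is near that share. The intracellular enzymes that remove hydrogen peroxide, ascorbate peroxidases and catalases, had a median of −0.10 over 9 genes. Of these APX1, a cytosolic ascorbate peroxidase, passed with 0.64 (SE 0.15; Wald test, BH adjusted p 0.000600), and its HO response minus its SWT response was −0.71 (z test, BH adjusted p 0.0311). The 8 genes that build the Casparian strip, among them those for the CASP scaffold proteins, had a median of 0.06 and 0 passed with CT in SWT.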
